A study of Mus musculus with 12 samples.

Results

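In the liver, 852 of 14488 tested genes (5.88%) responded differently to the loss of REV-ERBα at ZT8 and at ZT20 (zeitgeber time, hours after lights on). They were found in the interaction contrast, which subtracts the effect of the knock-out at ZT20 from its effect at ZT8 on the log2 scale. The same number says by how much the daily change from ZT8 to ZT20 in wild-type exceeded that in Rev-erbα-/-, and is referred to here as the interaction. It was positive for 442 genes (3.05% of those tested) and negative for 410 (2.83%). Each of these genes was then sorted by its daily change in both genotypes. The change was called lost where it passed the test in wild-type only, gained where it passed in Rev-erbα-/- only, reversed where it passed in both with opposite signs, damped where it was smaller in Rev-erbα-/- with the same sign, and heightened where it was larger. Of the 852 genes, 484 were lost, 144 gained, 86 reversed, 105 damped and 17 heightened, and 16 passed in neither genotype.

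RNA sequencing covered 12 livers in 4 groups of 3, wild-type and Rev KO at ZT8 and wild-type and Rev KO at ZT20, with 1 liver per library. Per the labels, all animals were 12 weeks old and of a 129Ola/C57BL6 strain background. The study's methods give a range of ages around this, male mice, a mixed background, and food ad libitum in a light and dark cycle with 12 h of light. The Rev KO animals carried a knock-out of Rev-erbα (Nr1d1) in the whole body and came from heterozygous breeding pairs, so that loss of REV-ERBα in other organs and during development is part of the model, and segments of either parental strain can differ between animals. With 2 times of day, a shift in the time of the peak and a change in its height cannot be told apart, and in whole liver less RNA per cell and fewer cells of a type cannot be told apart either.

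REV-ERBα is a nuclear receptor that represses transcription. It binds a short element, the RORE, which the activating ROR receptors also bind, and it recruits corepressors there. In the liver it accumulates during the light phase and holds down the clock activators Arntl (which encodes BMAL1), Clock and Npas2, among other genes, and its relative REV-ERBβ (Nr1d2) shares part of this work. The period and cryptochrome genes form the other limb of the clock and are driven through E-boxes, and PAR bZIP factors such as DBP act through D-boxes.

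The reads counted on genes numbered from 17641809 to 26060192 per library, so that 3 counts corresponded to between 0.117 and 0.167 CPM (reads scaled to library size with TMM factors). Nr1d1 itself (chr11:98767932-98775333, mm10) measured 129, 96.2 and 75.3 CPM in the wild-type livers at ZT8 and 63, 71.9 and 80.6 CPM in Rev KO, and 2.28, 1.86 and 2.15 against 3.57, 2.96 and 2.09 CPM at ZT20. Reads were counted over the whole symbol and without regard to strand, so these values neither check nor contradict the genotype labels. Thra, which overlaps Nr1d1 on the opposite strand and is named here after its values were seen, was at 17.5, 16.2 and 15.6 CPM in wild-type and 8.26, 6.33 and 5.97 CPM in Rev KO at ZT8. Thra was itself among the 852 genes, sorted as gained, and stayed called in 5 of the 12 fits that left out 1 liver. Hepatocyte markers summed to between 63400 and 115000 CPM in all 12 libraries. Wild-type replicates 2 and 3 at ZT8 stood apart from the other 10 libraries. Their acute-phase genes summed to 48700 and 60100 CPM against 23500 to 29600 CPM, and their alignments to several places numbered 2.89 and 3.28 per counted read against 1.24 to 2.72. Without both of them, which leaves wild-type at ZT8 with 1 liver that is assumed to vary like the other groups, 499 genes were called, 391 of the 852 among them, and 851 of the 852 kept their sign. Without wild-type replicate 1 at ZT8, the liver of that group with an acute-phase sum like the rest (23800 CPM), 1260 were called, 789 of the 852 among them. Fits that leave out livers share the remaining ones with the fit that chose the 852 genes. A kept sign was thus largely given in advance and is no separate evidence.

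Stretches of 30 bases that hold a RORE-like word are shown for some of the genes on which the results below turn. They come from the RefSeq promoters of GRCm38.p6, which reach from 250 bases before to 50 bases after the start of a gene, run 5′ to 3′ along the strand of the gene, and carry the word TAGGTCA or TGGGTCA, or its reverse complement, in capitals.
Arntl, chr7:113207530-113207559, plus strand: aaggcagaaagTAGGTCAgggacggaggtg
Nfil3, chr13:52981033-52981062, minus strand: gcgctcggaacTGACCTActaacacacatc
Ddc, chr11:11898132-11898161, minus strand: ggacaaagaaaTGGGTCAgttcaaagcatc
Insig2, chr1:121328205-121328234, minus strand: tgcttggtcttTGACCCAagtctctcgaga
Slc45a3, chr1:131970482-131970511, plus strand: ctaagggtcagTAGGTCAagttacaaacag
Plin5, chr17:56117440-56117469, minus strand: agggatggcccTGACCCAaactcggcaggg
Stat5a, chr11:100859598-100859627, plus strand: tgtgacccttcTAGGTCActggatggactc
Stat5a, chr11:100859629-100859658, plus strand: cgagtggtttgTGGGTCAcagtctgatgat
In Nfil3 and Ddc the word began 12 and 6 bases before the start of the gene, and in Arntl at base 31 after it. The genes shown were picked among those with the word. Abcb11, Ddit3, Lipc and Marco also held it and are not shown, and the interaction of Marco was negative (-4.43). For other genes on which the results turn, such as Clock, Npas2, Cry1, Chka and Cdkn1a, no stretch is given.

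More of these genes differed between genotypes at ZT8 than at ZT20. Among the 852 genes the genotypes differed at ZT8 only for 452, at ZT20 only for 212, at both times for 60 and at neither for 128. Over all genes, 8.45% differed between genotypes at ZT8 and 3.63% at ZT20. At ZT8 only, 269 genes were higher and 183 lower in Rev-erbα-/-, and at ZT20 only 133 were higher and 79 lower. Of the 60 genes that differed at both times, 56 did so in opposite directions. Lost genes with their wild-type level higher at ZT20 numbered 239, and 168 of them were raised in Rev-erbα-/- at ZT8 while 49 were lowered at ZT20. The 245 lost genes that were higher at ZT8 in wild-type divided more evenly, with 115 lowered at ZT8 and 92 raised at ZT20. Because the interaction is the difference of these effects, these counts describe the members and are not separate evidence.

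**Figure D1:**
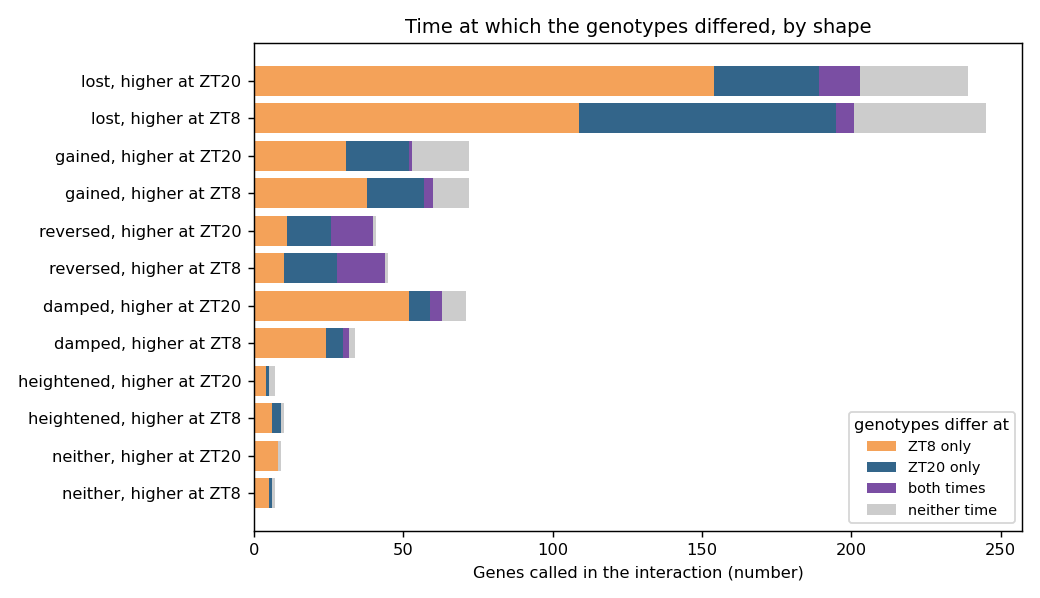
Number of genes called in the interaction (x axis) by shape and by the time of day at which the level was higher, with bars divided by the time at which the genotypes differed. Direction is that of wild-type, except for gained genes, where it is that of Rev-erbα-/-; the ZT8 part takes 154 of the 239 lost genes that were higher at ZT20.

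A daily change passed the test for 4018 genes in wild-type (27.7%) and for 2530 in Rev-erbα-/- (17.5%), and 692 (17.2%) of the wild-type genes were called in the interaction. A missed threshold in Rev-erbα-/- does not by itself show an absent daily change. For 337 of the 484 lost genes the 95% interval of the daily change in Rev-erbα-/- lay within 1.5-fold in either direction. The median absolute interaction was 0.82 among the 852 genes and 0.21 over all genes tested, and for 343 genes it was at least 1. Reversed genes had the largest median (1.52), followed by damped (0.95) and lost (0.78).

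**Figure D2:**
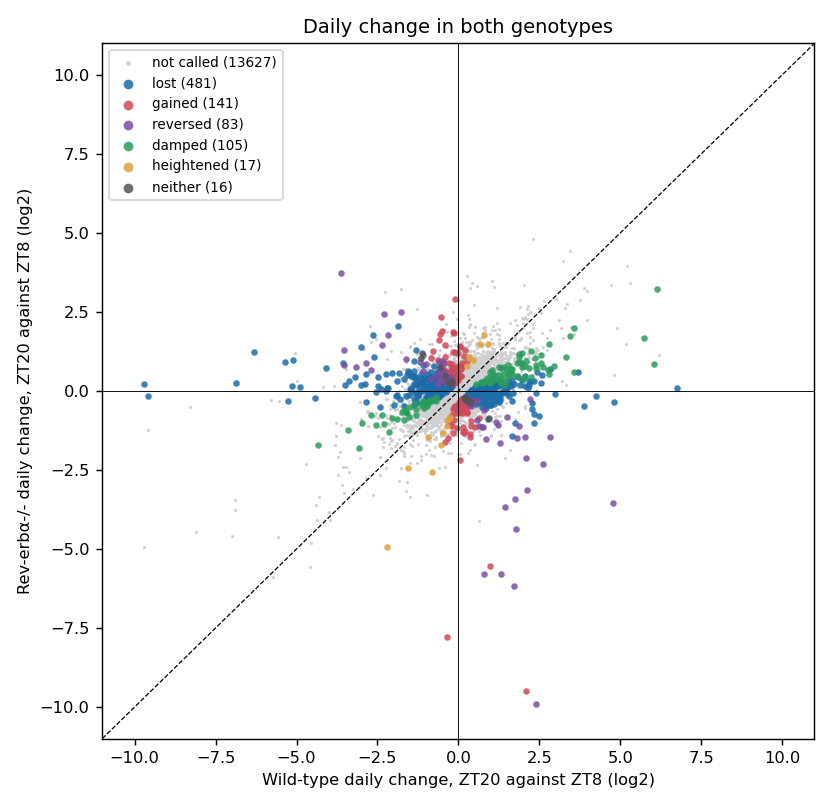
Daily change from ZT8 to ZT20 (log2), with wild-type on the x axis and Rev-erbα-/- on the y axis, 1 point per gene, coloured by shape, with the dashed line marking equal change. Lost genes lie along the horizontal line at 0 and gained genes along the vertical line, and 18 tested genes with a group without any read, 9 of them called, are left out.

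The number of genes called depended on single livers. It was 509 without wild-type replicate 2 at ZT8, 548 without Rev KO replicate 2 at ZT8, 493 without wild-type replicate 2 at ZT20 and 516 without Rev KO replicate 2 at ZT20. Without any of the other 8 livers it lay between 594 and 1260. Of the 852 genes, 427 (50.1%) were called in all 12 fits that left out 1 liver, and DESeq2 called 841. By shape these were 82 of 86 reversed, 67 of 105 damped, 223 of 484 lost, 49 of 144 gained and 6 of 17 heightened genes, and 0 of the 16 with a daily change in neither genotype.

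The activating limb of the clock was the gene list most completely represented, with 3 of 3 members called and a median interaction of 2.90 against 0.00105 over all genes. In a list of 3 that median is the value of Npas2, which lay below the level of 3 counts in wild-type at ZT8. Arntl had 5.20 and Clock 1.36. Arntl measured 0.796, 0.448 and 0.712 CPM in wild-type at ZT8 and 24.3, 25.7 and 22.7 CPM in Rev-erbα-/-, and 44.5, 45.2 and 43 against 45.1, 44.8 and 41.1 CPM at ZT20. The wild-type livers at ZT8 stood alone, and the knock-out livers at ZT8 were below those of both genotypes at ZT20. The rise from ZT8 to ZT20 was 66.4-fold in wild-type and 1.8-fold in Rev-erbα-/- (interaction 5.20 ± 0.16, SE, edgeR adjusted p = 3.9e-11).

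Clock encodes the partner of BMAL1. It measured 32.3, 26.7 and 29.8 CPM in wild-type at ZT8, 81.3, 71.9 and 69 CPM in Rev-erbα-/- at ZT8, 71.1, 75.3 and 73.3 CPM in wild-type at ZT20 and 77.2, 68.8 and 67.4 CPM in Rev-erbα-/- at ZT20. In contrast to Arntl, the knock-out livers at ZT8 overlapped those at ZT20, and the daily change was lost. Its 95% interval in Rev-erbα-/- ran from -0.24 to 0.12 on the log2 scale (interaction 1.36 ± 0.12, edgeR adjusted p = 5e-06). Npas2, which can take the place of Clock, stayed at 0.0796, 0.0996 and 0.0508 CPM in wild-type at ZT8, below the level of 3 counts, and at 0.883, 0.611 and 0.49 CPM in Rev-erbα-/-. It reached 6.84, 6.55 and 4.03 CPM in wild-type and 7.09, 6.86 and 4.76 CPM in Rev-erbα-/- at ZT20, so that Rev-erbα-/- kept a rise of 9.4-fold (interaction 2.90 ± 0.61, edgeR adjusted p = 0.0097). Without wild-type replicates 2 and 3 at ZT8 its interaction was 2.85 and no longer passed (edgeR adjusted p = 0.13).

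The 3 activators reached different points of the wild-type range in Rev-erbα-/- at ZT8. Knock-out levels at ZT8 overlapped the wild-type ZT20 level for Clock, lay below it for Arntl, and lay far below it for Npas2. Over all 71 damped genes that were higher at ZT20, the knock-out level at ZT8 sat at a median of 49.1% of the way, on the log2 scale, from the wild-type level at ZT8 to that at ZT20. This share describes genes that the sorting into damped had chosen.

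**Figure D3:**
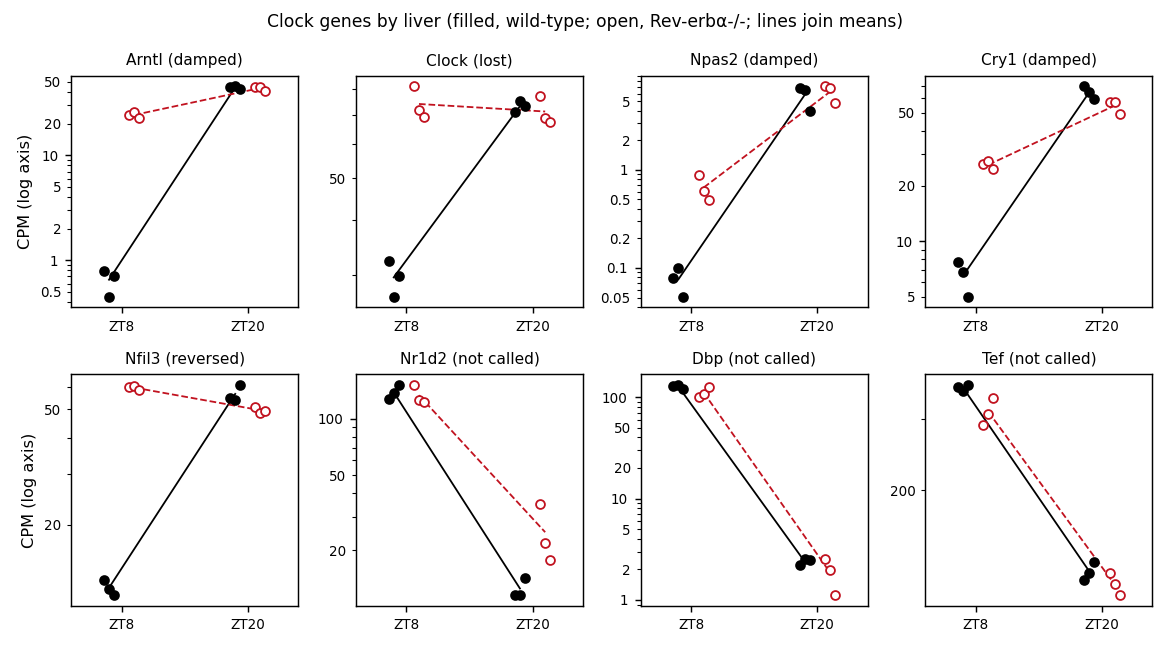
CPM by liver (log axis, range set for each gene) at ZT8 and ZT20 for 8 clock genes, with filled points for wild-type, open points for Rev-erbα-/- and lines joining group means of 3 livers. Wild-type is the lowest group at ZT8 for Arntl, Clock, Npas2, Cry1 and Nfil3, with the knock-out at ZT8 also below its own ZT20 level for Arntl, Npas2 and Cry1, whereas both genotypes fall in parallel for Dbp and Tef.

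Of the repressing limb, 1 of 12 tested members was called (8.33%, against 5.88% over all genes). Cry1, a cryptochrome that inhibits CLOCK and BMAL1, measured 7.68, 6.83 and 4.98 CPM in wild-type and 26.2, 27.5 and 24.6 CPM in Rev-erbα-/- at ZT8, and 69.7, 65.2 and 59.8 against 57.7, 57.3 and 49.4 CPM at ZT20. The daily rise was 9.92-fold in wild-type and 2.1-fold in Rev-erbα-/- (interaction 2.24 ± 0.17, edgeR adjusted p = 1.1e-06). Per1, Per2, Per3, Cry2, Bhlhe40, Bhlhe41, Fbxl21, Csnk1d, Csnk1e and Gm129 were not called, and their interactions lay between -0.55 for Per3 and 0.34 for Per2. For Bhlhe41, which fell 8.32-fold in wild-type and 8.25-fold in Rev-erbα-/- from ZT8 to ZT20, the 95% interval of the interaction ran from -0.41 to 0.39. A miss of this kind bounds the difference and does not show that the genotypes were alike.

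Among the nuclear receptors and bZIP factor of the REV-ERB and ROR limb, Nfil3 was the called member, 1 of 5 tested. Nfil3, a repressor at D-boxes, measured 12.9, 12 and 11.4 CPM in wild-type at ZT8 and 59.9, 60.1 and 58.5 CPM in Rev-erbα-/-. At ZT20 it measured 54.8, 54.1 and 60.8 CPM in wild-type and 51, 48.6 and 49.4 CPM in Rev-erbα-/-. It was sorted as reversed because a 4.66-fold rise in wild-type faced a small fall in Rev-erbα-/-, of 1.2-fold (edgeR adjusted p = 0.016). With a threshold of 1.5-fold on each daily change it was sorted as lost.

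Nr1d1, Nr1d2 and Rora were not called by edgeR, and DESeq2 called 3 of the 5 members of this limb. Nr1d2 fell 11.1-fold in wild-type and 5.33-fold in Rev-erbα-/-, with 11.6, 11.5 and 14.2 CPM against 35.2, 21.7 and 17.7 CPM at ZT20 (interaction -1.06, edgeR adjusted p = 0.081). Its genotypes did not overlap at ZT20. The PAR bZIP factors, which lie directly downstream of the activators through E-boxes, gave 0 of 3 called. Dbp measured 129, 132 and 120 CPM in wild-type and 99.2, 107 and 127 CPM in Rev-erbα-/- at ZT8 and between 1.11 and 2.52 CPM in all livers at ZT20. The interaction was 0.15 for Dbp, -0.09 for Tef and 0.18 for Hlf, with 95% intervals from -0.41 to 0.71, -0.34 to 0.15 and -0.10 to 0.46. By edgeR 0 of these 3 reached an unadjusted p under 0.05 either, and DESeq2 called 0.

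Outside the clock, the lost genes with the smallest p that were higher at ZT20 were Slc45a3, Ddc, Abtb2 and Asap2. Slc45a3, a sugar transporter, was at 13.8, 14.7 and 15 CPM in wild-type at ZT8 and at 55.6, 59.2 and 64.6 CPM in Rev-erbα-/-, and at ZT20 at 67.3, 74.1 and 88.8 against 48.7, 57.2 and 65.9 CPM (interaction 2.47 ± 0.17, edgeR adjusted p = 4.6e-07). Ddc, which makes dopamine and serotonin from their precursors, had a level of 42.5, 38.4 and 31.7 CPM in wild-type at ZT8 against 128 to 197 CPM in the other 9 livers (interaction 2.00 ± 0.16, edgeR adjusted p = 2e-06). In both genes the wild-type livers at ZT8 were the low group and overlapped none of the others.

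Asap2, which regulates ARF GTPases, behaved likewise at a lower level, with 7.12, 7.62 and 7.73 CPM in wild-type at ZT8 against 20 to 24.7 CPM elsewhere (interaction 1.39 ± 0.11, edgeR adjusted p = 2.4e-06). Abtb2 kept a small rise in Rev-erbα-/- that missed the threshold, from 26.4, 24.6 and 29 CPM to 34, 32.6 and 33.3 CPM (1.25-fold, edgeR adjusted p = 0.053). In 6 of the 18 other fits it was sorted as damped. Cdkn1a, the cell cycle inhibitor p21, was lost as well, with 2.83, 2.69 and 1.93 CPM in wild-type at ZT8 and between 24.4 and 56.6 CPM in all other livers (interaction 4.44 ± 0.31, edgeR adjusted p = 1.3e-05).

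The damped genes with the smallest p besides Arntl and Cry1 included Chka, Mreg and Nedd4l. Chka encodes choline kinase, the first step of phosphatidylcholine synthesis from choline. It measured 18.8, 15 and 14.4 CPM in wild-type and 97.1, 95.3 and 99.6 CPM in Rev-erbα-/- at ZT8, and 205, 190 and 184 against 155, 155 and 132 CPM at ZT20. Its rise of 11.9-fold was reduced to 1.52-fold, from both ends, since the knock-out was 6.03-fold higher at ZT8 and 1.31-fold lower at ZT20 (edgeR adjusted p = 3.8e-10 and 0.029).

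Mreg, which acts in the transport of melanosomes and lysosomes, and Nedd4l, a ubiquitin ligase of ion channels, had interactions of 1.34 and 1.23. Nedd4l was close to the border of lost, with a rise of 1.15-fold in Rev-erbα-/- (edgeR adjusted p = 0.045), and it was sorted as damped in 8 of the 18 other fits.

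Clock output genes, a list of 25 liver genes with a known daily rhythm, held 7 called members, 6 positive and 1 negative. The share was 28%, against 5.88% over all genes and 17.2% over the genes with a daily change in wild-type. The 5.88% is also the share to set beside each list below. The called members were Cdkn1a, Mreg, Elovl3, Ppard, Avpr1a, Tfrc and Wee1. A daily change passed for 20 of the 25 in wild-type and for 12 in Rev-erbα-/-. The list's median interaction was -0.12. Elovl3, an elongase of very long-chain fatty acids, was 4.04-fold higher in Rev-erbα-/- at ZT8 and kept a 3.33-fold daily rise in place of 11-fold. Avpr1a, the liver's vasopressin receptor, was at 16.9, 18.2 and 17.1 CPM in wild-type and 42.3, 36.2 and 38.6 CPM in Rev-erbα-/- at ZT8 and between 41.6 and 58.1 CPM at ZT20. Ppard, a fatty acid receptor, rose 7.02-fold in wild-type and 2.8-fold in Rev-erbα-/-.

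Wee1, a kinase that delays mitosis and an E-box target of the clock, was the opposite case. Its level was 14.8, 14.6 and 13.5 CPM in wild-type at ZT8 and 4.99, 4.17 and 7.88 CPM in Rev-erbα-/-, and between 5.79 and 6.51 CPM in all livers at ZT20. The higher level at ZT8 was the part that was lost (interaction -1.37 ± 0.24, edgeR adjusted p = 0.0032).

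Of the sterol genes, Insig2, Abcg5 and Abcg8 were damped, 3 of 14 tested (21.4%, median interaction of the list -0.05). Insig2, which retains the sterol sensor in the endoplasmic reticulum, was higher in Rev-erbα-/- at ZT8 (2.99-fold). The transporters Abcg5 and Abcg8, which together export sterols into bile, moved the other way. Abcg5 measured 134, 151 and 150 CPM in wild-type and 75, 86.6 and 93.9 CPM in Rev-erbα-/- at ZT8, and Abcg8 214, 224 and 223 against 110, 114 and 124 CPM. At ZT20 the genotypes differed by 1.05-fold and 1.1-fold (edgeR adjusted p = 0.79 and 0.59). Abcg5 and Abcg8 share a promoter region head to head, and their interactions were -0.70 and -0.78. Of 21 genes of cholesterol synthesis 0 were called by edgeR or DESeq2 and 8 had an unadjusted edgeR p under 0.05, although a daily change passed in wild-type for 15 and in Rev-erbα-/- for 10. Their median interaction was 0.37.

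All called genes of the lipid synthesis, storage and lipolysis lists had positive interactions, that is, the wild-type rise to ZT20 exceeded that of the knock-out. In lipogenesis 4 of 24 were called (16.7%), Elovl3, Elovl5, Agpat2 and Mlxipl. In the droplet and lipase list 3 of 16 were called (18.8%), Plin5, Abhd5 and Lipc. Over all tested members the medians of these lists were 0.12 and 0.23, and the lowest values were -0.74 and -1.37. Plin5, a droplet coat protein that ties droplets to mitochondria, measured 18.4, 22.4 and 17.8 CPM in wild-type and 37.5, 45.2 and 63.4 CPM in Rev-erbα-/- at ZT8. At ZT20 it was at 62.7, 50.7 and 50.9 CPM against 39, 42.4 and 58.3 CPM, so that the genotypes overlapped at ZT20 and not at ZT8 (interaction 1.55 ± 0.30, edgeR adjusted p = 0.013).

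Elovl5, an elongase of polyunsaturated fatty acids, rose from 211, 187 and 159 CPM to 642, 613 and 493 CPM in wild-type and from 243, 228 and 331 CPM to 362, 396 and 378 CPM in Rev-erbα-/-. It differed at both times, with the knock-out higher at ZT8 (1.44-fold) and lower at ZT20 (1.54-fold). Mlxipl, the carbohydrate response factor ChREBP, differed at ZT20 only, with 515, 514 and 532 CPM in wild-type and 368, 405 and 387 CPM in Rev-erbα-/-.

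Of 25 genes of fatty acid oxidation, Fgf21 and Pdk4 were called (8%, list median -0.03), and of 17 bile acid genes Cyp8b1 and Abcb11 (11.8%, list median 0.08). Over all genes 5.88% were called, so that counts this small describe the members and not the lists. Pdk4, which restrains pyruvate oxidation, was 3.47-fold higher in Rev-erbα-/- at ZT8 and kept a 3.99-fold rise in place of 11.9-fold. Cyp8b1, the sterol 12α-hydroxylase that sets the share of cholic acid, measured 336, 239 and 178 CPM in wild-type and 458, 549 and 745 CPM in Rev-erbα-/- at ZT8. At ZT20 it was at 548, 482 and 442 CPM against 459, 437 and 406 CPM.

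Amino acid and one-carbon genes gave 6 of 27 called (22.2%, list median 0.13), in mixed shapes. Ddc, Shmt1 and Asns were lost, Got1 and Kynu gained, and Ahcy damped. Asns, which makes asparagine, measured 18.4, 44.8 and 46.3 CPM in wild-type at ZT8, 1.02, 1.42 and 2.55 CPM in wild-type at ZT20, and between 14 and 22.8 CPM in all 6 knock-out livers. It thus fell 21.7-fold in wild-type and 1.16-fold in Rev-erbα-/- (interaction -4.22 ± 0.59, edgeR adjusted p = 0.0042). The lowest of the wild-type livers at ZT8 was replicate 1, and Asns stayed called without it and without the other two.

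The genes of the integrated stress response, the ATF4 and CHOP branch, were called in 6 of 15 cases (40%, list median 0.30). Nupr1, a stress-induced chromatin protein, was at 10.8, 10.7 and 4.99 CPM in Rev-erbα-/- at ZT8 and at or under 0.973 CPM in the other 9 livers. Its daily change turned from a rise of 2.74-fold in wild-type to a fall of 12.9-fold in Rev-erbα-/- (interaction 5.14 ± 0.56, edgeR adjusted p = 4.6e-05). The wild-type rise was at low levels, from a mean of 0.287 to 0.808 CPM (edgeR adjusted p = 0.029). Nupr1 was sorted as reversed in 13 of the 18 other fits and as gained in the rest. Fgf21, a fasting hormone of the liver, was at 3.53, 4.17 and 4.31 CPM in Rev-erbα-/- at ZT8 against 0.597, 0.598 and 0.305 CPM in wild-type, and at 0.21, 0.623 and 0.267 CPM against 2.37, 1.64 and 1.16 CPM at ZT20. The genotypes did not overlap at either time, in opposite directions (interaction 5.16 ± 0.51, edgeR adjusted p = 2e-05).

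Atf5, a factor translated under stress, was lost, at 104, 136 and 138 CPM in wild-type at ZT8 and 278, 288 and 284 CPM in Rev-erbα-/-, and between 183 and 294 CPM at ZT20. Atf3 was at 3.22, 2.11 and 2.55 CPM in Rev-erbα-/- at ZT8 and at or under 1.4 CPM in the other groups. Ddit3, which encodes CHOP, had a small interaction of 0.67 and a daily change in neither genotype. Asns, an ATF4 target as well, went against the other 5, with a negative interaction. The remaining 9 tested members, Atf4 itself among them, were not called.

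**Figure D4:**
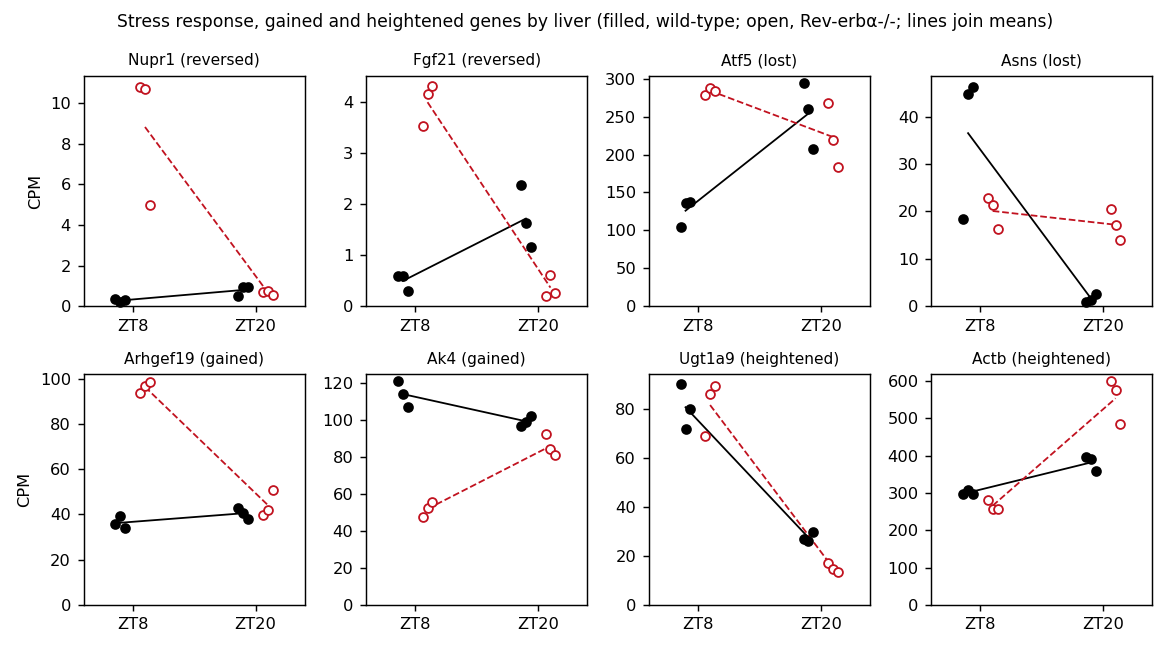
CPM by liver (linear axis from 0, range set for each gene) for 4 genes of the integrated stress response and 4 genes with a gained or heightened daily change, drawn as in the plot of clock genes. Nupr1, Fgf21 and Arhgef19 are high in Rev-erbα-/- at ZT8, Ak4 is low there, and the knock-out livers depart from wild-type at ZT20 for Ugt1a9 and Actb.

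Glucocorticoid-induced genes, which the study followed, were called in 3 of 20 cases (15%, list median -0.15). Besides Cdkn1a, Tsc22d3 (GILZ, an anti-inflammatory GR target) was lost. It measured 139, 109 and 113 CPM in wild-type and 164, 170 and 195 CPM in Rev-erbα-/- at ZT8, and 197, 229 and 253 against 162, 173 and 174 CPM at ZT20. The genotypes differed at both times, in opposite directions (1.46-fold higher and 1.34-fold lower, edgeR adjusted p = 0.0056 and 0.046). Adh1, an alcohol dehydrogenase, was gained, from 1110, 1170 and 1140 CPM to 1530, 1750 and 1950 CPM in Rev-erbα-/- against 1350 to 1450 CPM in wild-type. In Rev-erbα-/- it was 1.24-fold lower at ZT8 and 1.26-fold higher at ZT20, and neither passed (edgeR adjusted p = 0.062 and 0.088). The study reports PCR differences at ZT8 for Adh1, Gnmt and Lipc, and writes of increased expression in the knock-out. Here Gnmt and Lipc were 1.36-fold and 1.57-fold higher at ZT8 (edgeR adjusted p = 0.069 and 0.0024). Gnmt, Nfkbia, Per1 and the receptor gene Nr3c1 were not called, with interactions of 0.34, -0.14, -0.12 and 0.11 and edgeR adjusted p of 0.38, 0.66, 0.9 and 0.68. Nfkbia was lower in Rev-erbα-/- at both times, 1.44-fold at ZT8 and 1.31-fold at ZT20 (edgeR adjusted p = 0.0049 and 0.047). The study reports it as higher in knock-out livers by PCR. The interaction of Per1 turned positive without wild-type replicate 1 at ZT20 (0.07) and without Rev KO replicate 3 at ZT20 (0.12), and that of Nr3c1 was 0.00 without Rev KO replicate 1 at ZT8.

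The growth hormone axis gave 4 of 15 called (26.7%, list median 0.51), Elovl3, Stat5a, Stat5b and Mup20. Stat5a, a signal transducer of the growth hormone receptor, was at 9.79, 10.7 and 12 CPM in wild-type and 15.6, 17.6 and 20.7 CPM in Rev-erbα-/- at ZT8, and at 21, 19.5 and 20.7 against 12.8, 15 and 15.7 CPM at ZT20. Stat5b, its neighbour on chromosome 11, moved the same way with a smaller interaction of 0.51 against 1.22. The xenobiotic list gave 4 of 29 (13.8%, list median 0.06), Adh1, Ahr, Ugt2b1 and Cyp2a4. Cyp2a4 was at 109, 71.7 and 28.5 CPM in wild-type at ZT20 and at or under 2.27 CPM in the other 9 livers, and because Cyp2a5 is nearly identical to it, its reads are uncertain.

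Growth and cell cycle genes gave 3 of 19 called (15.8%, list median 0.05), Cdkn1a, Btg1 and Wee1, and endoplasmic reticulum chaperones 2 of 20 (10%, list median 0.14), Dnajb9 and Herpud1. Over all genes the share was 5.88%. The remaining lists were near or under the share of all genes. Of hepatocyte transcription factors 1 of 17 was called (5.88%), Hnf4a, of heat shock genes 1 of 17, Chordc1, of oxidative phosphorylation 1 of 28, Cox5a, and of proteasome subunits 1 of 25, Psmb5. Of 22 genes of glucose metabolism edgeR called 0 (8 at an unadjusted p under 0.05, and 3 by DESeq2), of 20 interferon genes 0 (1 and 0) and of 27 ribosomal proteins 0 (0 and 0). Of 24 acute-phase genes edgeR called 0, with 11 at an unadjusted p under 0.05 and 8 called by DESeq2, and their median interaction was -0.59. A daily change of these genes passed the test in 12 cases in wild-type and in 0 in Rev-erbα-/- by edgeR (1 at an unadjusted p under 0.05, and 1 by DESeq2). The 2 wild-type livers with a high acute-phase sum were both from ZT8, and without the third liver of that group edgeR called 13 of the 24. Without those 2 livers it called 0 of the 24, their median interaction was 0.17, and a daily change passed in wild-type for 2 of them. Without replicate 1 of that group the calls also rose to 10 of 25 clock output genes, 5 of 17 bile acid genes, 9 of 29 xenobiotic genes and 3 of 22 genes of glucose metabolism, while the clock activators and the integrated stress response stayed at 3 of 3 and 6 of 15. Without replicates 2 and 3 they were 7 of 25, 0 of 17, 2 of 29, 1 of 22, 2 of 3 and 4 of 15 in the same order, and lipogenesis fell to 1 of 24, the droplet and lipase list to 0 of 16 and amino acid and one-carbon genes to 3 of 27.

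**Figure D5:**
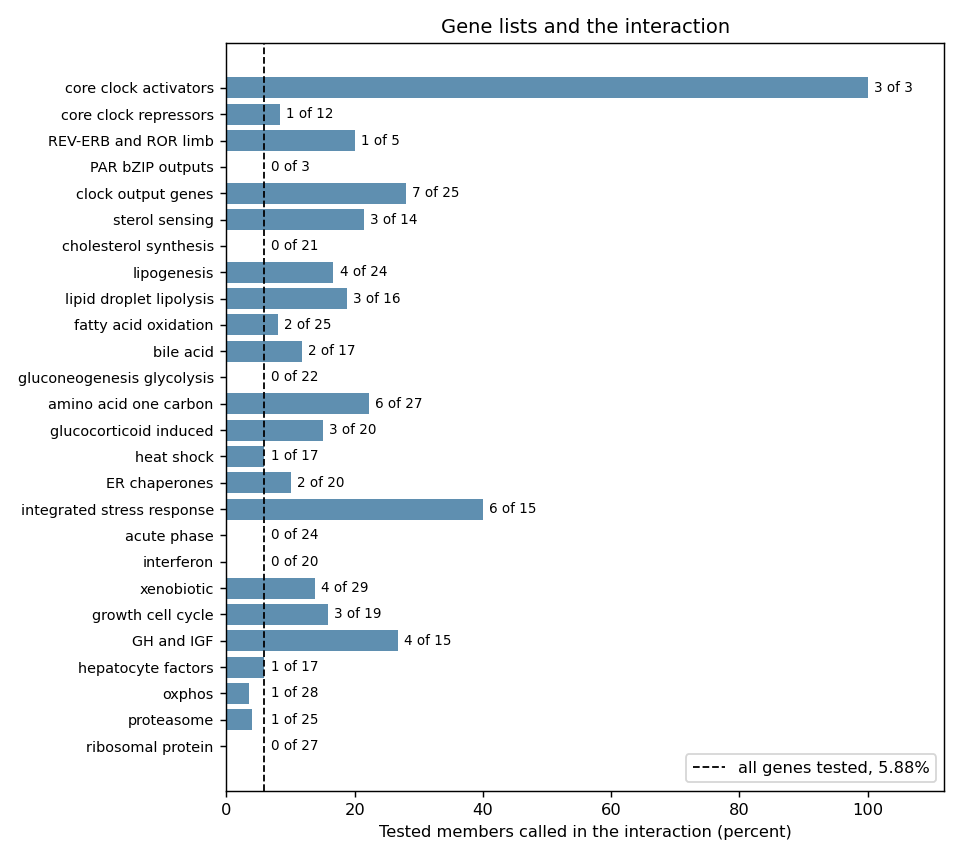
Share of tested members called in the interaction (percent, x axis) for 26 gene lists, with counts beside the bars and the share over all genes as a dashed line. Clock activators, the integrated stress response, clock output genes and the growth hormone axis reach the highest shares, and 6 lists have no called member.

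Of markers of other cell types, edgeR called 3, the Kupffer cell marker Marco (1 of 8), the stellate cell marker Reln (1 of 8) and the B cell marker Ighm (1 of 6). With 5.88% called over all genes, 1 call in a list this short says little about the cell type. All 8 Kupffer markers had a negative interaction (median -0.46), 4 had an unadjusted edgeR p under 0.05 and DESeq2 called 3. Without wild-type replicate 1 at ZT8 edgeR called 4 of these 8, and without replicates 2 and 3 of that group it called 0 (median -0.17). DESeq2 called 1 stellate and 1 B cell marker. Of 8 endothelial, 5 cholangiocyte, 3 neutrophil, 6 red cell and 1 T and NK cell markers tested, edgeR and DESeq2 each called 0, and 4 had an unadjusted edgeR p under 0.05. The summed Kupffer markers ranged from 377 to 590 CPM in wild-type at ZT8, 336 to 411 CPM in Rev-erbα-/- at ZT8, 330 to 409 CPM in wild-type at ZT20 and 376 to 453 CPM in Rev-erbα-/- at ZT20. The summed B cell markers, most of them Ighm, ranged from 10.2 to 11.5, 12.4 to 26.6, 18.9 to 38.9 and 9.36 to 14.7 CPM in the same order. Their part in other calls was not tested.

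For 121 lost genes the genotypes differed at ZT20 only. Rps3a1 and Acp1 had the smallest p among them. Acp1, a low molecular weight phosphatase, measured 3.86, 3.94 and 3.62 CPM in wild-type at ZT20 and between 20.2 and 28.7 CPM in the other 9 livers (interaction -3.09 ± 0.16, edgeR adjusted p = 1.3e-08). Rps3a1, a ribosomal protein, measured 1.02, 0.84 and 0.939 CPM in wild-type at ZT20 and between 23 and 31.6 CPM in the others. In both, 1 group stood apart. The Rev-erbα-/- livers at ZT8 varied most, with 20.6, 20.2 and 28 CPM for Acp1 and 23, 31.6 and 26.4 CPM for Rps3a1. Rps3a1 has near-identical copies, so its reads are uncertain.

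Ahcy, which hydrolyses S-adenosylhomocysteine, was at 193, 179 and 181 CPM in wild-type at ZT20 and between 26 and 46.9 CPM in the others, and it has near-identical copies too. Ahr, the aryl hydrocarbon receptor, and Psmb5, a proteasome subunit, differed at ZT20 as well, by 1.29-fold upward and 1.78-fold downward in Rev-erbα-/-. Aim1l was at 4.46, 7.82 and 7.22 CPM in wild-type at ZT8 and at 0, 0.133 and 0.0895 CPM in wild-type at ZT20, at or under the level of 3 counts, against 0.156, 0.611 and 1.18 CPM and 0.63, 1.6 and 2.49 CPM in Rev-erbα-/-. With a threshold of 1.5-fold on each daily change it was sorted as reversed.

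For the 144 gained genes the daily change in wild-type missed the threshold, which does not by itself show a flat level. For 107 of them the 95% interval of the wild-type change lay within 1.5-fold. Arhgef19, an exchange factor for small GTPases, was at 93.8, 96.7 and 98.7 CPM in Rev-erbα-/- at ZT8 and between 33.9 and 51 CPM in the other 9 livers (interaction 1.29 ± 0.13, edgeR adjusted p = 2.1e-05). Ak4, a mitochondrial adenylate kinase, was the reverse, at 47.6, 52.6 and 55.7 CPM in Rev-erbα-/- at ZT8 and between 81 and 121 CPM elsewhere. Grk5, a kinase of G protein-coupled receptors, was at 13.1, 13.1 and 8.52 CPM in Rev-erbα-/- at ZT8 and at or under 5.08 CPM elsewhere. In these 3 genes the knock-out livers at ZT8 overlapped no other liver.

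Wdfy1 and Robo1 were gained through ZT20. Wdfy1, an endosomal adaptor, was at 12, 13.9 and 12.7 CPM in Rev-erbα-/- at ZT20 and between 27 and 36.4 CPM elsewhere, and Robo1, a guidance receptor, at 2.94, 2.38 and 2.18 CPM against 4.85 to 8.01 CPM. Tead1, a factor of the Hippo pathway, differed at both times, 1.67-fold lower in Rev-erbα-/- at ZT8 and 1.54-fold higher at ZT20. Nuggc and Cebpe had the largest interactions of the named gained genes, at low levels. Their wild-type rises of 1.96-fold and 2.73-fold missed the threshold (edgeR adjusted p = 0.33 and 0.17). By the 1.5-fold rule both were sorted as reversed, and Cebpe was sorted as gained in 7 of the 18 other fits. Cebpe had no read in the 3 Rev-erbα-/- livers at ZT20, and 3.78, 1.74 and 0.153, 2.65, 3.11 and 3.43, and 4.14, 4.69 and 7.25 CPM in the wild-type ZT8, knock-out ZT8 and wild-type ZT20 groups. With a floor of 3 counts per library (0.125 CPM) the knock-out was at least 42.8-fold lower at ZT20.

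For 30 of the 86 reversed genes the genotypes differed at both times. Ctse, the protease cathepsin E, was at 14.5, 16.9 and 16.9 CPM in wild-type and 8.26, 9.17 and 11 CPM in Rev-erbα-/- at ZT8, and at 44.2, 40 and 35.1 against 0.126, 0.312 and 0.0445 CPM at ZT20 (interaction 7.09 ± 0.31, edgeR adjusted p = 3.3e-09). Tmc5, a membrane protein of the TMC family, was at 1.35, 0.947 and 0.356 CPM and 5.61, 5.56 and 10.9 CPM at ZT8, and at 7.54, 7.21 and 5.73 CPM in wild-type at ZT20 with no read in Rev-erbα-/-. By the floor it was at least 54.4-fold lower there. Ren1, which encodes renin, had 830 reads in the 3 wild-type livers and 1 in the 3 knock-out livers at ZT20, a ratio of 899 (95% counting interval 161 to 35600), and it has a near-identical copy in some mouse strains.

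In the other direction, Tmc7, Rps15a, Pik3c2a and Ttc39a fell from ZT8 to ZT20 in wild-type and rose in Rev-erbα-/-. Pik3c2a, a phosphoinositide kinase, was at 34, 38 and 47.8 CPM and 27.8, 25.2 and 25.8 CPM in wild-type, and at 32.7, 27.7 and 28.4 CPM and 60.8, 53.5 and 54.8 CPM in Rev-erbα-/-, at ZT8 and ZT20 respectively. Tmc7 fell 3.07-fold in wild-type and rose 2-fold in Rev-erbα-/-, and Rps15a, which has near-identical copies, fell 2.12-fold and rose 2.21-fold. Ttc39a was at 8.56, 10.2 and 11 CPM and 1.44, 0.796 and 1.07 CPM in wild-type and at 3.12, 3.72 and 5.19 CPM and 5.62, 6.66 and 8.27 CPM in Rev-erbα-/-. Mup20, a major urinary protein of male mice with near-identical relatives, had 83.1, 97.1 and 111 CPM in wild-type at ZT20 and between 400 and 803 CPM elsewhere.

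Heightened genes numbered 17. Ugt1a9, a glucuronosyltransferase that shares exons with its family, fell 2.94-fold in wild-type and 5.42-fold in Rev-erbα-/-, with 26.8, 25.9 and 29.8 CPM against 17.1, 14.6 and 13.5 CPM at ZT20. Narf fell 1.92-fold and 2.75-fold. Actb, cytoplasmic β-actin, rose from 297, 309 and 297 CPM to 396, 390 and 360 CPM in wild-type and from 282, 258 and 256 CPM to 601, 577 and 485 CPM in Rev-erbα-/-. The genotypes differed at ZT20 only for these 3. For Arsa, Idh3a and Mcc they differed at ZT8 only, and the wild-type change was small (1.27-fold, 1.19-fold and 1.25-fold), so that by the 1.5-fold rule all 3 were sorted as gained, as was Actb with its wild-type change of 1.27-fold.

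The share of called genes varied between stretches of the genome. In 11 of 223 windows of 10 Mb with at least 20 tested genes, 15% or more of the genes were called. They were picked after their values were seen, and they held 106 called among 515 tested genes. Of the reversed genes with a position 25.6% lay in them (21 of 82), of the gained 14.3%, of the lost 12.2% and of the damped 7.84%, against 3.76% of the tested genes. Because the windows were chosen by their share of called genes, an excess of called genes over tested genes was fixed in advance. How many windows would pass by chance was not tested. The highest share was on chromosome 12 from 20 to 30 Mb, with 12 of 26 genes called (46.2%), 10 of them with genotypes that differed at ZT20 only. Asap2 is among these 12. The next 10 Mb held 6 called genes of 31, all 6 different at ZT20 only, with Acp1 and Ahr among them.

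On chromosome 7 from 110 to 120 Mb, 12 of 59 genes were called (20.3%). Arntl, Wee1, Tmc5, Tmc7, Rps15a, Pik3c2a and Tead1 all lie there, and 5 of the 12 were reversed. On chromosome 14 from 50 to 60 Mb, Psmb5 and Cebpe were among 20 called of 110, and Nuggc was among 11 of 66 in the next window. On chromosome 4 from 60 to 70 Mb, 16 of 60 were called, and 12 of these were Mup genes or pseudogenes. Clock lies in another of the 11 windows, on chromosome 5 from 70 to 80 Mb, with 6 of 36 called. Outside them, Ctse, Slc45a3 and Ren1 lie within 2 Mb of each other on chromosome 1. The background was a mixture of 129Ola and C57BL6, and the deposited counts carry no genotypes. Strain segments that 1 group of 3 animals carries and an effect of time within a genotype cannot be told apart for genes in these windows, nor for genes outside them such as Ctse and Rps3a1.

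A RORE-like word (TAGGTCA or TGGGTCA, both strands) stood in 6.5% of the 9959 promoters of tested genes and in 9.38% of the 608 promoters of called genes. The share was 10.5% for lost genes, 7.32% for damped, 6.32% for gained and 8.77% for reversed. Among lost or damped genes that were higher at ZT20 and raised in Rev-erbα-/- at ZT8, 23 of 163 promoters held the word (14.1%), and among lost genes for which the genotypes differed at ZT20 only 3 of 85 did (3.53%). An E-box (CACGTG) stood in 11.5% of all promoters and in 14.3% of those of called genes, with 12.2% for lost, 18.3% for damped, 17.9% for gained, 12.3% for reversed and 33.3% for heightened genes (4 of 12). Its share was 18.5% for lost or damped genes that were higher at ZT8 and lowered in Rev-erbα-/- at ZT8. A D-box (TTATGTAA or TTACGTAA, both strands) stood in 0.894% of all promoters and in 0.987% of called ones. Such a match is a description of the letters in this window and was not tested against chance.

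Of the 82 named genes called in the interaction, 62 stayed called in each of the 18 other fits in which they were tested, all at the same adjusted p of 0.05. The other 20 lost the call in at least 3 of the 12 fits without 1 liver. Ahr, Atf3 and Mlxipl did so in 3 fits, Herpud1 in 4, Ighm in 5, Cyp2a4 in 6, Cyp8b1, Marco and Tfrc in 7, Cebpe, Cox5a, Got1, Kynu, Lipc and Reln in 8, Abcb11, Ddit3, Hnf4a and Ugt2b1 in 9 and Abhd5 in 11. The largest edgeR adjusted p was between 0.059 (Mlxipl) and 0.14 (Cox5a), and none of the 20 changed sign. For Mlxipl these livers were wild-type replicate 2 at ZT8 and at ZT20 and Rev KO replicate 1 at ZT8, for Ahr replicate 2 of each group but wild-type at ZT8, and for Atf3 Rev KO replicate 1 at ZT8 and wild-type replicates 1 and 2 at ZT20. Since the called genes were chosen on these same data, a kept sign here and below is no separate evidence. Without both wild-type ZT8 livers with a high acute-phase sum, 56 of the 82 stayed called. Agpat2, Btg1, Elovl5, Mcc, Npas2, Plin5, Shmt1 and Ugt1a9 lost the call there, with edgeR adjusted p from 0.056 (Elovl5) to 0.16 (Btg1), as did the 20 just named but for Ahr and Cebpe, and none of the 26 changed sign.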

How the data were processed

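Poly(A) RNA of 12 livers was sequenced with reads of up to 75 bases. The authors mapped the reads to mm10 with TopHat, kept uniquely mapped reads and counted them with HTSeq-count per gene symbol (union mode, minimum alignment quality 10, no strand), and they deposited the raw counts of 38926 symbols and 5 summary lines for each liver. Their own tests used DESeq2 1.6.3. Reads that fit several places or several genes are not counted, so genes with near-identical copies or overlapping neighbours are uncertain. Summary lines were left out of library sizes. Reads on no gene and on several genes amounted to between 8.5% and 9.95% and between 3.08% and 3.62% per library.

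Groups were taken from the sample labels. The filterByExpr filter on low counts left 14488 genes, libraries were scaled by TMM, and 4 group means were fitted over all 12 samples with the robust quasi-likelihood test of edgeR 4.0.16 in R 4.3.3. Benjamini-Hochberg adjustment was made over all tested genes of a contrast, with a threshold of 0.05, and p-values measure the spread between livers. CPM are TMM-scaled, errors of log2 changes are standard errors and intervals are at 95%. Floors and counting intervals cover counting error only. Replicates of a group differed beyond counting noise (chi-square per degree of freedom of 7.6 or more). The steps were tested on simulated data.

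Named genes were, within each shape, the 6 with the smallest interaction p among genes that reached 5 CPM in a group, the 10 with the largest interaction by the same level, called members of the gene lists, all members of the clock lists, and genes that the study names in liver. Predicted models, pseudogenes and Mup genes did not fill places in the first 2 of these, and some named genes are not reported here. Members and lists were chosen with earlier results of these data known. Gene positions are from GENCODE vM21 (94.5% of tested genes matched 1 position) and promoters from RefSeq. The annotation was a mouse GTF file whose release is not given in the sources used here. Alternatives were DESeq2 1.42.0, other size factors, no filter, a mean count of at least 50, no robust estimate, a stricter adjusted p (0.01), a block for the replicate number, an absolute interaction of at least 1, shapes by a 1.5-fold daily change, and leaving out each liver. Leaving out wild-type replicates 2 and 3 at ZT8 together, with the same genes tested, was chosen after seeing the data.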

Additional observations from a re-analysis of the deposited data

Results flagged for a closer look

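The genotype effect differed between ZT8 and ZT20 by the interaction test for 852 genes, and the named genes with the smallest p or the largest interaction are given here with that value (log2, positive where the wild-type change from ZT8 to ZT20 exceeded that of Rev-erbα-/-). Among lost genes it was -5.03 for Rps3a1, -3.09 for Acp1, 2.47 for Slc45a3, 2.00 for Ddc, 1.92 for Abtb2, 1.39 for Asap2, -7.57 for Aim1l and 6.64 for Cyp2a4. Among damped genes it was 5.20 for Arntl, 2.98 for Chka, 2.24 for Cry1, 1.34 for Mreg and 1.23 for Nedd4l.

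Among gained genes the interaction was 1.83 for Grk5, 1.5 for Robo1, -1.37 for Tead1, 1.29 for Arhgef19, 1.13 for Wdfy1, -0.93 for Ak4 and 6.50 for Nuggc, and at least 6.11 for Cebpe, which had no read in Rev-erbα-/- at ZT20. Among reversed genes it was 7.09 for Ctse, 7.88 for Ren1, 5.14 for Nupr1, 2.48 for Nfil3, -3.93 for Ttc39a, -2.62 for Tmc7, -2.23 for Rps15a and -1.53 for Pik3c2a, and at least 8.82 for Tmc5, again with no read in that group. The value of Ren1 rests on 1 read in that group and depends on how the fit treats low counts. The values of Nuggc and Aim1l also rest on a group near or under the worth of 3 counts. For Nuggc this was Rev-erbα-/- at ZT20 (mean 0.122 CPM) and for Aim1l wild-type at ZT20 (mean 0.0741 CPM). Among heightened genes it was 0.88 for Ugt1a9, 0.77 for Arsa, -0.72 for Mcc, -0.72 for Actb, 0.60 for Idh3a and 0.52 for Narf. Rps3a1, Rps15a, Cyp2a4, Ren1 and Ugt1a9 have near-identical copies or shared exons, and Tmc5, Tmc7, Rps15a, Pik3c2a, Tead1 and Arntl lie within 10 Mb of each other.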

How the results depend on the processing

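With DESeq2 size factors, no filter, a mean count filter, no robust estimate and DESeq2 in place of edgeR, the number of genes called was 852, 859, 785, 857 and 1085, and every shape stayed within 1.5 times its number but the class with a daily change in neither genotype (43 by DESeq2). With the replicate number as a block it was 831, 742 of the 852 among them. Over all tested genes, 0 of 18 same-numbered pairs deviated together with a correlation over 0.1 (highest 0.0738). Such a correlation cannot exclude a shared order for some genes. From replicate 1 to 3, Per1 rose and Tfrc fell in every group, 2 genes picked after their values were seen. Whether the numbers mark a pairing was not tested further. At an adjusted p of 0.01, 357 genes were called, 203 positive and 154 negative, with 229 lost, 54 gained, 26 reversed, 38 damped, 2 heightened and 8 in neither, and with an absolute interaction of at least 1 they numbered 343 (170 and 173). By a 1.5-fold daily change 82 were gained, 58 damped, 7 heightened and 271 in neither, so the shapes depend on how a daily change is called.

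Leaving out each liver moved the number called between 493 and 1260, the positive between 275 and 589 and the negative between 218 and 671. Lost genes ranged from 280 to 713, gained from 71 to 184, reversed from 48 to 118, damped from 58 to 188, heightened from 3 to 18 and neither from 2 to 39. Among named genes that were not called, the sign changed without single livers for Bhlhe41 (-0.073 to 0.093), Cry2 (-0.044 to 0.103), Csnk1e (-0.071 to 0.092, and 0.002 by DESeq2), Dbp (-0.10 to 0.41), Nr3c1 (-0.003 to 0.18), Per1 (-0.45 to 0.12) and Rora (-0.144 to 0.063). Leaving out both wild-type ZT8 livers with a high acute-phase sum, chosen after seeing the data, gave 499 genes (266 positive, 233 negative), with 248 lost, 66 damped, 3 heightened and 9 in neither. The sign then changed for Bhlhe40 (-0.071), Csnk1e (0.013), Per1 (0.106) and Rora (0.073), and Nr1d1 was called (-1.31, edgeR adjusted p = 0.013). Scaling by DESeq2 size factors left the median interaction of all genes at 0.000953. The cause of these shifts was not tested. Genes near 0.117 to 0.167 CPM, the worth of 3 counts, give no reliable fold.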
